A study of Mus musculus with 12 samples.

Results

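The interferon-stimulated and MHC class I genes are 34 genes, chosen by name, of the 54352 gene symbols counted in primary mouse adventitial fibroblasts. They were 3 RNA sensors (Ddx58, Ifih1 and Trim25), 4 transcription factors (Stat2, Irf9, Irf7 and Irf1), 19 antiviral effectors including the ISG15 system, and 8 genes of antigen processing and MHC class I (Psmb8, Psmb9, Tap1, Tap2, Tapbp, B2m, H2-K1 and H2-D1). All of their symbols had a row in the count table.

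The cells were grown out of the adventitia, the outer fibroblast layer of the vessel wall, of wild-type C57Bl/6 mice 14 weeks of age per the labels. The study's methods state male mice and give another age, and they take tissue of both sites from the same animals without saying which animals made up which library. The ascending cultures came from the aortic root and ascending aorta and the descending cultures from the descending thoracic aorta down to the renal arteries. Each was passaged before treatment, and near confluence received either the solute control or 10 ng/mL of mouse TGFβ for 48 h. This gave 4 groups of 3 libraries, namely ascending control, ascending TGFβ, descending control and descending TGFβ, with no other difference between them in the labels. Because no source says that the 3 cultures of a group came from separate mice, the p-values measure only the spread between these libraries, which may be technical.

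Type I interferons act through the receptor of Ifnar1 and Ifnar2 and the kinases JAK1 and TYK2, which switch on a complex that holds STAT2 and IRF9. This complex binds the interferon-stimulated response element (ISRE) in the promoters of antiviral genes. Interferon gamma acts at the gamma-activated site (GAS) and through IRF1, and raises the genes that cut peptides (the immunoproteasome subunits Psmb8 and Psmb9), carry them into the endoplasmic reticulum (Tap1 and Tap2), load them (Tapbp) and present them (H2-K1 and H2-D1 with B2m). Fibroblasts make and answer interferons, and keep part of this program on at a low level without infection.

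The ISRE is written in the promoters of many of these genes, and the stretches that hold it are shown for members from each level of expression and response described in the results. They were read from the RefSeq promoter table for GRCm38.p6 (250 bases before to 50 after the start), 5′ to 3′ on the strand of the gene, with the ISRE core in capitals. The core searched was GAAANNGAAA on both strands, so that a match on the other strand reads TTTCNNTTTC, and neighbouring matches may overlap.
Isg15, chr4:156200855-156200916, minus strand: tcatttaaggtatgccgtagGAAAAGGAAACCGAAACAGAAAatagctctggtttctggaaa
Ifit1, chr19:34640765-34640833, plus strand: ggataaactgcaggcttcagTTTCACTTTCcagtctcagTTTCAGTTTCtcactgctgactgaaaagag
Ifit3, chr19:34583353-34583436, plus strand: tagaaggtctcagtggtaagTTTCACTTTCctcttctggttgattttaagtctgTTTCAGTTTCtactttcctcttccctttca
Gbp2, chr3:142620584-142620633, plus strand: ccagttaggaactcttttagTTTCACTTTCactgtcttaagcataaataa
Gbp3, chr3:142559979-142560034, plus strand: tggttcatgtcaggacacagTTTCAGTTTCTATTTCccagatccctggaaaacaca
Stat2, chr10:128270256-128270305, plus strand: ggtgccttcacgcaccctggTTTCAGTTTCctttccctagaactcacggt
B2m, chr2:122147528-122147577, plus strand: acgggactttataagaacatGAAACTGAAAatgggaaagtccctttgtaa
Bst2, chr8:71537567-71537622, minus strand: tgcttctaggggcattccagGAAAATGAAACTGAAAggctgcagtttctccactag
Rsad2, chr12:26456543-26456592, minus strand: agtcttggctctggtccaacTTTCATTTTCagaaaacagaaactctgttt

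Of the 34 members, 27 had a promoter in the table, and the ISRE core was in 12 of these (44.4%) against 3.99% of the 27025 genes of the table. Besides the 9 printed, it was in Ddx58, Ifih1 and Oas1a. Isg15 held 3 overlapping copies between 78 and 57 bases before its start, and Ifit1, Ifit3, Gbp3, Bst2 and Oas1a held 2 each. The GAS core TTCNNNGAA was in 6 of the 27 (22.2%; Bst2, Ifi35, Ifit2, Irf1, Oas1a and Psmb8) against 9.55% of all genes, and in Irf1 it lay from 90 to 82 bases before the start. Bst2 and Oas1a held both cores. The genes with no promoter in the table were Usp18, Oas2, Mx1, Mx2, Rtp4, Parp14 and Tap2. A match of these letters is a description of the promoter and not a measured site.

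Several members lie side by side in the genome (GRCm38, GENCODE vM21). The run of antigen processing genes on chromosome 17 holds Psmb9 (chr17:34181987-34187764), Tap1 (chr17:34187553-34197225), Psmb8 (chr17:34197721-34201454) and Tap2 (chr17:34203527-34216321), with Tapbp (chr17:33915899-33929292) and H2-K1 (chr17:33996017-34000347) on one side and H2-D1 (chr17:35262730-35267499) on the other. Ifit2 (chr19:34550694-34576419), Ifit3 (chr19:34583531-34588731) and Ifit1 (chr19:34640871-34650009) are neighbours on chromosome 19, and Gbp3 (chr3:142560026-142573209) and Gbp2 (chr3:142620602-142638008) on chromosome 3. Some members share sequence with a near copy, so that the counting may have split or lost their reads. Of all 50-base stretches in the exons, 51.2% of those of Ifit3 also occur elsewhere, mostly in Ifit3b, 57.6% of those of Oas1a in Oas1g, 12.8% of those of H2-D1 in H2-Q1 and 9.63% of those of H2-K1 in H2-Q10. Exons of Tapbp (29.0% of its bases), Tap2 (18.5%), Ifi35 (16.8%) and Psmb8 (14.7%) overlap a gene on the other strand, and no source states whether the counting used strand.

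The libraries held between 16250126 and 23892943 counts. Descending control replicate 3 stood apart from the other 11. It had 13031 genes with a count against 19337 to 20931, 11% of its counts were mitochondrial against 0.703% to 1.03%, and only 22 of the 34 members had a count in it against 30 to 33. Counts of called genes that use the descending control are therefore given with and without this library, as are the values of most genes named. The cultures carried fibroblast markers at high level, with 9 of 9 above the floor and a sum of 12708 to 25643 normalized CPM (counts scaled to a common library size). With TGFβ, 3 of the 9 were higher and 6 lower in ascending fibroblasts. The same counts held in descending fibroblasts without control replicate 3, against 2 higher and 4 lower with it. The markers of lymphocytes and of endothelium summed to at most 4.59 and 2.20 CPM, and the 6 of dendritic cells, 1 of which is the member Bst2, to at most 18.8 CPM. The 4 mesothelial markers summed to 32.9 to 42.7 CPM in ascending control and 19.6 to 26.5 in ascending TGFβ, against 6.89 to 13.05 and 12.2 to 13.9 in the descending groups. The 6 smooth muscle markers, some of which fibroblasts also express, summed to 157 to 167 CPM in ascending control, 201 to 217 in ascending TGFβ, 210.2 to 259 in descending control and 354 to 376 in descending TGFβ. The 12 macrophage markers summed to 402 CPM in ascending control replicate 2 against 63.7 and 66.8 in the other two ascending controls, 31.5 to 57.7 in the descending controls and 16.3 to 49.2 with TGFβ, with Lyz2 at 291, 38.8 and 42.4 CPM in the ascending controls. Of 7 genes that TGFβ is known to raise, 6 were higher and 1 was lower with TGFβ in ascending fibroblasts. In descending fibroblasts 6 were higher and 1 lower without control replicate 3, and 4 higher and 1 lower with it. The lower gene in descending cells was Tgfbi (-2.70 without control 3 and -2.56 with it).

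Per length, the members spanned a range from B2m, the invariant light chain of MHC class I, at 549.9 CPM per kilobase of exon in ascending control, to Rsad2, which blocks viral replication, at 0.0115. H2-D1 (37.9), Ifit3 (20.5), Tapbp (17.1) and Bst2 (14.6), a membrane tether that holds virus particles back, followed B2m in that group. The transcription factors lay in the middle, with Stat2 at 4.61, Irf9 at 2.35, Irf1 at 2.00 and Irf7 at 0.496 CPM per kilobase. Isg15, the ubiquitin-like protein for which the system is named, was at 2.25. Some neighbours in this order did not differ beyond the spread of their libraries, such as Gbp2 (4.70), Stat2 (4.61) and Ddx58 (4.57). The 6 members that passed the filter on low counts in no comparison of all libraries were Oas1a, Oas2, Mx1, Mx2, Rsad2 and Rtp4, which had between 0 and 17 counts in every library. They include classic antiviral genes of an acute interferon response, but Mx2 is annotated as a polymorphic pseudogene. Nothing about interferon activity is read from their low counts. Mx1 had 3 counts in 1 ascending control and 1 count in 1 descending control with none in the other 10 libraries. Oas2, which makes the second messenger of the RNase L pathway, had 5, 17 and 12 counts in the ascending controls and 3, 3 and 4 with TGFβ, a ratio of 3.25 with an exact counting interval of 1.57 to 7.38. A count of 0 allows up to 0.117 to 0.207 normalized CPM, the value of 3 counts in each library, and such limits cover counting error only. Of the other 28 members, 25 passed the filter in all comparisons, and Ifi44, Psmb8 and Psmb9 in some.

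**Figure D1:**
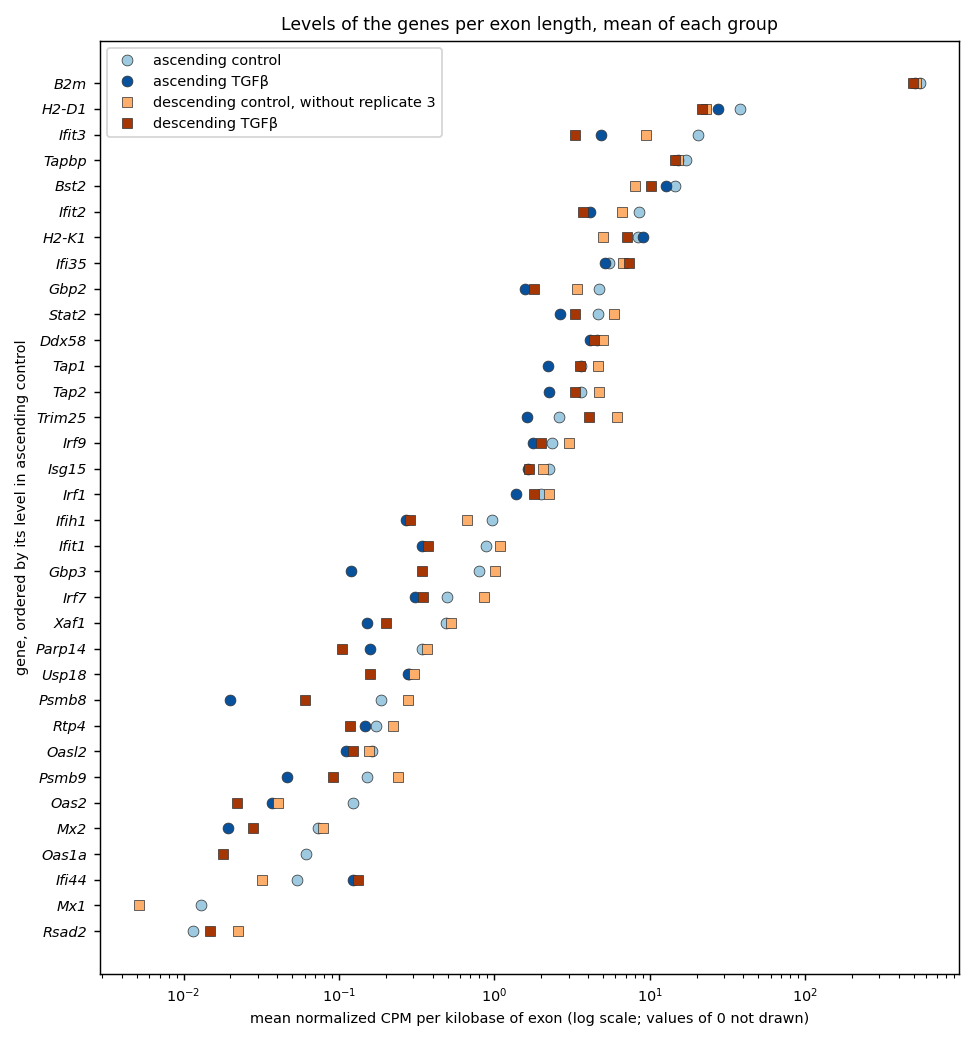
Mean normalized CPM per kilobase of exon for each member and group (log axis), with genes ordered by their level in ascending control. Descending control is the mean of replicates 1 and 2 and the other groups are means of 3 libraries. B2m stood at 549.9 in ascending control and Mx1 and Rsad2 at the foot at 0.0129 and 0.0115.

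The first comparison asked how TGFβ changed these genes in ascending fibroblasts. Of the 26 members tested, 20 were lower with TGFβ, none was higher and 6 did not pass. Ifit3, which binds viral RNA as part of the IFIT complex, fell 4.25-fold, Gbp3, a guanylate-binding GTPase, fell 6.48-fold, and Ifih1, the sensor of long double-stranded RNA also called MDA5, fell 3.57-fold. The peptide transporter genes Tap1 and Tap2 and the heavy chain gene H2-D1 fell less, between 1.38-fold and 1.65-fold, while the heavy chain gene H2-K1 did not pass. Over all genes tested, 27.6% were lower with TGFβ and 28.2% were higher (55.8% in either direction), by edgeR's quasi-likelihood test at a Benjamini-Hochberg adjusted p under 0.05. The median log2 fold change was -0.68 over the 26 members and -0.0044 over all genes tested. Gbp3 and Psmb8 passed the filter on low counts only through the controls, where they were high, so that a difference was built into their being tested. Of the other 24 members 18 were lower, with a median of -0.63. Since bulk RNA was measured, fewer cells of a type and less RNA per cell cannot be told apart.

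All 3 sensors were called lower by edgeR and Ifih1 and Trim25 also by DESeq2. Ifih1 was at 6.82, 8.64 and 7.98 CPM in the controls and at 2.45, 2.36 and 1.75 with TGFβ (log2 fold change -1.84, SE 0.18, adjusted p = 1.62e-07). Trim25, the ubiquitin ligase that activates the sensor RIG-I, went from 12.9, 17.7 and 14.5 to 10.2, 9.22 and 8.57 (-0.69, SE 0.12, adjusted p = 0.000113). Neither gene's groups overlapped. The share of all genes without overlap was not counted, so this and later statements on overlap only describe the libraries. Ddx58, which encodes RIG-I itself, was 1.12-fold lower (-0.16, SE 0.06, adjusted p = 0.0418), and this call was lost without control replicate 2 or 3 or TGFβ replicate 1 or 2 (adjusted p 0.0505 to 0.21), by DESeq2 (adjusted p = 0.155), with no filter on low counts (0.0615) and in the fit of the 11 libraries other than descending control 3 (0.0637).

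All 4 transcription factors were called lower by edgeR and all but Irf7 also by DESeq2. Stat2 was at 24.8, 28.3 and 28.8 CPM in the controls and at 14.8, 16.1 and 16.02 with TGFβ, 1.75-fold lower (-0.81, SE 0.08, adjusted p = 1.02e-07). Its partner Irf9 was at 11.5, 14.7 and 11.8 against 8.87, 10.9 and 8.67 (-0.42, SE 0.12, adjusted p = 0.0076). In both genes the lowest control lay above the highest TGFβ library. Irf7, the amplifier of type I interferon production, was at 1.87, 1.85 and 1.90 against 1.30, 1.13 and 1.07 (-0.68, SE 0.26, adjusted p = 0.0321). Irf1, the factor for the gamma response, was at 7.86, 6.54 and 9.40 against 4.75, 5.86 and 5.75 (-0.54, SE 0.16, adjusted p = 0.007). The groups did not overlap in either gene, but the call for Irf7, on 22 to 43 counts a library, was lost on leaving out any library other than TGFβ replicate 1 (adjusted p 0.0621 to 0.0884), by DESeq2 (0.136) and with no filter on low counts (0.0699), and that for Irf1 without control replicate 3 (-0.41, adjusted p = 0.0516).

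Of the 19 effectors, 12 were tested and 7 fell, namely Ifit1, Ifit2, Ifit3, Xaf1, Parp14, Gbp2 and Gbp3. Ifit3 was at 33.4, 35.8 and 38.3 CPM in the controls and 8.46, 7.80 and 9.10 with TGFβ (-2.09, SE 0.08, adjusted p = 9.91e-13). Gbp3 was at 2.26, 2.80 and 2.68 against 0.261, 0.426 and 0.487 (-2.70, SE 0.31, adjusted p = 1.39e-06). Xaf1, an antagonist of apoptosis inhibitors, was at 2.61, 2.40 and 1.90 against 0.731, 0.567 and 0.828 (-1.70, SE 0.29, adjusted p = 8.07e-05). The groups did not overlap in any of these 3 genes. Ifit3b, whose exons share much of the sequence of Ifit3, moved in the same direction, from 6.95 ± 0.66 to 2.21 ± 0.40 CPM in ascending cells (SD, n = 3). Gbp2, Ifit1, Parp14 and Ifit2 were 3.00-fold, 2.59-fold, 2.16-fold and 2.09-fold lower.

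The genes of the ISG15 system did not pass the test. Isg15 was at 1.17, 1.60 and 2.34 CPM in the controls and 1.57, 1.09 and 1.07 with TGFβ, and its groups overlapped (-0.46, 95% interval -1.06 to 0.15, adjusted p = 0.227). Usp18, the protease that removes ISG15 from proteins, had a log2 fold change of 0.01 (95% interval -0.82 to 0.83). Oasl2 (-0.58), Bst2 (-0.21) and Ifi35 (-0.09) also did not pass. Ifi44 was below the filter, with 9, 3 and 9 counts in the controls and 20, 9 and 16 with TGFβ, a ratio of control to TGFβ of 0.447 with an exact counting interval of 0.253 to 0.765.

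In antigen processing and presentation, 6 of 7 tested genes fell, 1 of them Psmb8, which passed the filter only through the controls. Psmb8 had 13, 16 and 11 counts in the controls and 2, 1 and 1 with TGFβ (-3.15, SE 0.59, adjusted p = 0.000246), a ratio of 9.57 with an exact counting interval of 3.46 to 36.8. Tap1 was at 20.03, 19.2 and 19.96 CPM against 12.1, 11.2 and 12.8 (-0.72, SE 0.08, adjusted p = 7.82e-07). H2-D1 was at 85.6, 112 and 95.4 against 72.5, 71.7 and 68.2 (-0.47, SE 0.07, adjusted p = 3.6e-05). The groups did not overlap in any of the 3. Tapbp, the loading chaperone, fell by 0.17 on the log2 scale (adjusted p = 0.00985). B2m was at 447, 493 and 479 against 440.4, 436 and 438, a fall of 1.08-fold (-0.12, SE 0.03, adjusted p = 0.00948). Psmb9 was below the filter at 14, 16 and 5 counts against 6, 1 and 3, a ratio of 3.35 with an exact counting interval of 1.62 to 7.58. H2-K1 was at 19.2, 32.2 and 22.5 CPM against 25.6, 27.05 and 26.3 and did not pass (0.10, 95% interval -0.15 to 0.35). The control with 32.2 CPM was replicate 2, the library with the high macrophage markers, and without it H2-K1 was higher with TGFβ (0.34, adjusted p = 0.00117).

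Macrophage markers moved with these genes, as 10 of 11 tested were lower with TGFβ in ascending fibroblasts, and so was 1 of 3 mesothelial markers tested (Upk3b, -0.89). Of the 6 smooth muscle markers 4 were higher and 2 lower, and the pan-leukocyte marker Ptprc was lower (-1.24). Without control replicate 2, whose marker sum was the highest, 18 members were lower and 1 was higher. Of the 12 macrophage markers none was at or under the floor in every library of either ascending group, and the part of these cell types in the result was not tested. With a log2 fold change above 1 required as well, 9 members were lower by edgeR. DESeq2 called 18 members lower. In a fit of all 12 libraries, which takes its spread also from descending control replicate 3, 7 were lower, and in a fit of the other 11 libraries 21 were. The shares of all genes called in these alternative fits are not given here, so nothing is read from the size of these counts.

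**Figure D2:**
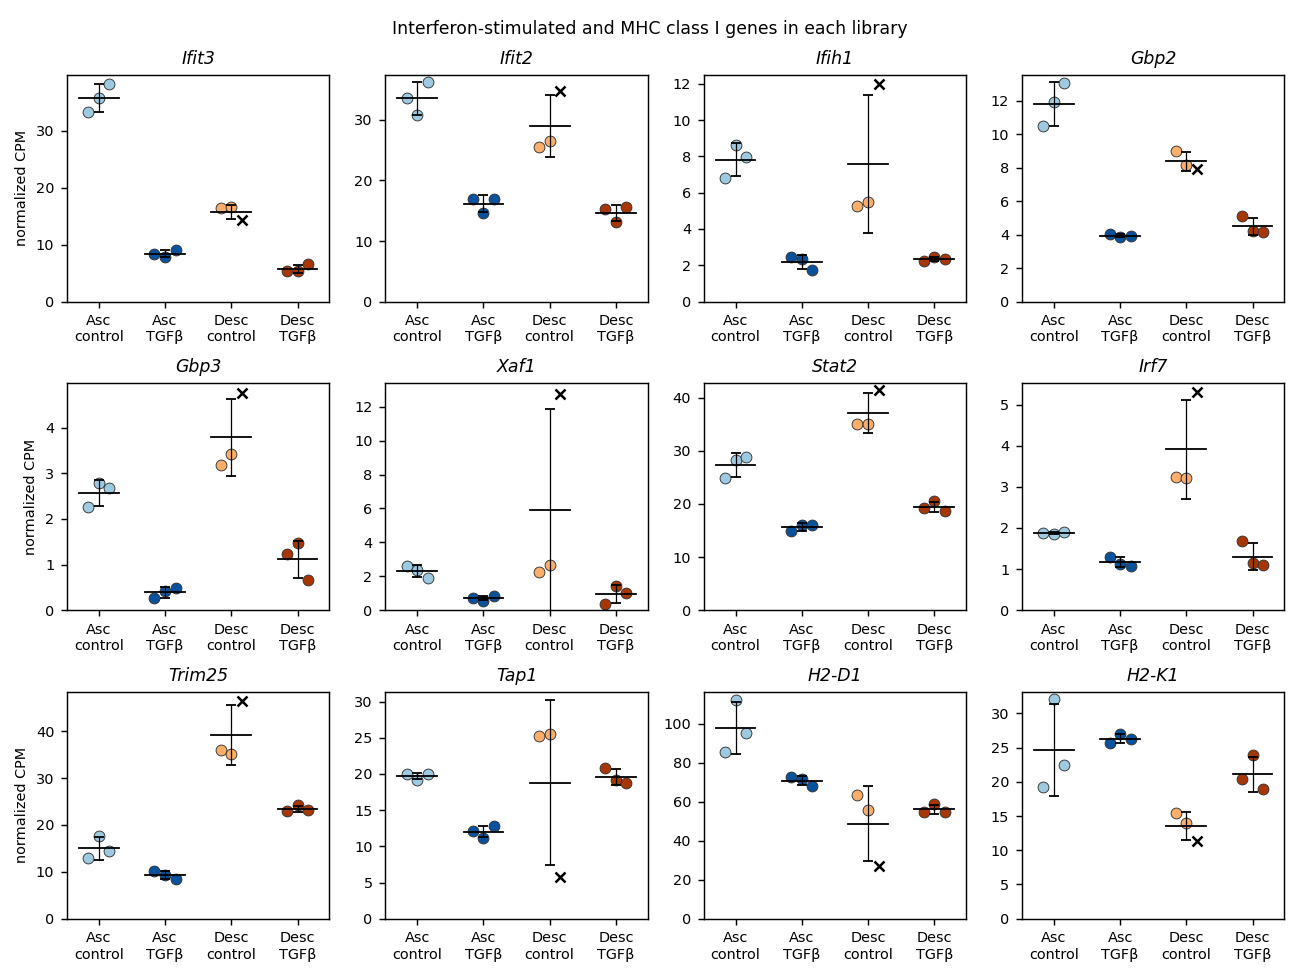
Normalized CPM of 12 members in each library (points), with the group mean (long line) and SD (bars, n = 3). The cross is descending control replicate 3, which is part of the mean and SD of its group. Ifit3 stood at 33.4 to 38.3 in ascending control and at 7.80 to 9.10 in ascending TGFβ.

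The second comparison asked the same in descending fibroblasts. Without descending control replicate 3, 17 of the 28 members tested were lower with TGFβ, 3 were higher and 8 did not pass. Psmb8, Parp14, Gbp3, Ifit1 and Ifit3 had the largest falls, between 2.85-fold and 4.53-fold, and the 3 that rose were Ifi44, H2-K1 and Bst2. Over all genes tested in this fit 26.3% were lower and 26.6% higher with TGFβ (52.9% in either direction), and the median log2 fold change was -0.60 over the members and -0.012 over all genes. Psmb8 and Psmb9 passed the filter only through the controls and Ifi44 only through the TGFβ libraries, and of the other 25 members 15 were lower and 2 higher, with a median of -0.60. With all 6 libraries, 5 of 26 members were lower (Trim25, Stat2, Ifit2, Ifit3 and Gbp2) and none higher, where 4.48% of all genes were lower and 3.59% higher (8.07% in either direction). The members' median was then -0.58 and that of all genes 0.02, and Ifi44 was again tested only through the TGFβ libraries (a median of -0.75 over the other 25). DESeq2 called 11 members lower and 1 higher with control 3 kept, as did a fit of all 12 libraries. The shares of all genes called in these fits are not given here, so these counts are not set against a background.

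The 5 members called with all 6 libraries were called in both fits, at like size. Stat2 was at 35.0, 35.0 and 41.4 CPM in controls 1 to 3 and at 19.3, 20.5 and 18.6 with TGFβ (-0.94, SE 0.14, adjusted p = 0.0141, and -0.84, SE 0.08, adjusted p = 3.04e-10, without control 3). Trim25 was at 36.0, 35.1 and 46.5 against 23.1, 24.2 and 23.2 (-0.75, adjusted p = 0.0433, and -0.60, adjusted p = 1.16e-07). Ifit3 was at 16.4, 16.6 and 14.4 against 5.36, 5.36 and 6.57 (-1.46, adjusted p = 0.00791, and -1.51, adjusted p = 1.65e-11). Control 3 was the highest library for Stat2 and Trim25 and the lowest control for Ifit3, and the groups did not overlap in any of them. Ifit2, which binds RNA like its neighbour Ifit3, was at 25.5, 26.5 and 34.8 against 15.3, 13.2 and 15.5 (-0.99 and -0.82). Gbp2 was at 9.02, 8.19 and 7.93 against 5.10, 4.23 and 4.16 (-0.91, adjusted p = 0.0499, and -0.94, adjusted p = 6.15e-06).

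Members that passed edgeR's test of the 2 groups without control 3 and not with it differed in where that library lay. In Parp14, a mono-ADP-ribosyltransferase of the antiviral response, the controls were at 3.07, 3.73 and 10.8 CPM and the TGFβ libraries at 1.33, 0.596 and 0.992 (-2.59, adjusted p = 0.0664, and -1.79, adjusted p = 4.83e-06). In Gbp3, the controls were at 3.19, 3.43 and 4.76 against 1.22, 1.46 and 0.662 (-1.77, adjusted p = 0.0651, and -1.58, adjusted p = 2.4e-05). In Ifit1, the controls were at 2.92, 2.82 and 6.62 against 0.459, 1.19 and 1.32 (-2.05, adjusted p = 0.101, and -1.52, adjusted p = 0.000129). In these 3 genes control 3 was the highest library, and the fall was larger with it and its standard error wider. In Psmb8 it had no count, with 26 and 20 counts in controls 1 and 2 and 7, 3 and 2 with TGFβ (-2.18, SE 0.53, adjusted p = 0.000961, without control 3, and a ratio of 4.65 with a counting interval of 2.43 to 9.65).

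Of the other transcription factors, Irf7 was lower in some fits with control 3 and without it, Irf9 was lower without it, and Irf1 did not pass. Irf7 was at 3.23, 3.21 and 5.31 CPM against 1.68, 1.14 and 1.09 (-1.59, adjusted p = 0.0682, and -1.30, adjusted p = 0.000117, without control 3). With control 3 kept, the adjusted p of Irf7 was 0.0043 by DESeq2, 0.00283 in the fit of all 12 libraries and 0.0316 with at least 10 counts required in every library. Irf9 was at 17.9, 14.7 and 7.31 against 9.49, 11.5 and 11.1, where control 3 lay below every TGFβ library (-0.32, adjusted p = 0.616, and -0.61, adjusted p = 6.65e-05). Irf1 was at 9.49, 8.32 and 7.86 against 6.43, 8.62 and 6.47 and passed in neither fit (-0.26, adjusted p = 0.497, and -0.32, adjusted p = 0.0677). Isg15 was at 1.52 and 1.60 with no count in control 3, against 1.17, 1.03 and 1.61, and passed in neither (0.26 and -0.28, adjusted p = 0.913 and 0.478).

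The presentation genes split. Tap1 stood at 25.2 and 25.5 CPM in controls 1 and 2, 5.72 in control 3, and 20.8, 19.2 and 18.8 with TGFβ (0.05, adjusted p = 0.969, and -0.37, adjusted p = 0.000545, without control 3), and Tap2 fell likewise without that library (-0.05, adjusted p = 0.973, and -0.52, adjusted p = 9.9e-05). H2-K1 was at 15.4, 14.0 and 11.3 against 20.4, 23.9 and 18.9, with every TGFβ library above every control (0.63, adjusted p = 0.101, and 0.52, SE 0.10, adjusted p = 9.59e-05). With control 3 kept, H2-K1 was higher by DESeq2 (0.64, adjusted p = 0.0372) and in the fit of all 12 libraries (0.63, adjusted p = 0.0345). H2-D1 was at 63.3, 55.9 and 27.0 against 54.8, 58.7 and 54.7 and passed in neither fit (0.20, adjusted p = 0.748, and -0.09, adjusted p = 0.284). B2m was at 436 and 457 but 2412 in control 3, against 436, 431 and 400.4 (-1.39, adjusted p = 0.304, and -0.08, adjusted p = 0.207). The other 11 libraries of the study had B2m at 400.4 to 493.

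Besides H2-K1, Ifi44 and Bst2 passed as higher without control 3. Ifi44, a cytoplasmic protein of unclear role, had 9, 1 and 0 counts in controls 1 to 3 and 15, 14 and 19 with TGFβ (2.45, adjusted p = 0.251, with all 6 libraries, and 1.96, adjusted p = 0.00533, without control 3). It passed the filter only through the TGFβ libraries, where it was high, so that a difference was built into its being tested. Bst2 was at 7.12 and 7.41 CPM with no count in control 3, against 9.59, 9.10 and 8.98 (0.91, adjusted p = 0.689, and 0.35, adjusted p = 0.0278). The macrophage markers summed to 46.4, 57.7 and 31.5 CPM in controls 1 to 3 and 23.97, 30.5 and 16.3 with TGFβ, 1 of the 12 was at or under the floor in every library of each descending group (Itgam), 7 of 10 tested were lower without control 3 and none of 9 with it. Smooth muscle markers were higher in 5 of 6 and lower in 1 without control 3, and higher in 2 with it. Kdr (1.02) and the dendritic cell markers Xcr1 (3.44) and Bst2 were higher without control 3 and not called with it, and the part of these cell types in the changes of the members was not tested. By DESeq2 without control 3, Bst2, Ddx58 and Psmb9 lost their calls (adjusted p = 0.119, 0.193 and 0.126). On leaving out any descending library other than control 3, between 0 and 1 members were lower, and the call kept was that of Ifit3 without control 1 (-1.43, adjusted p = 0.0436). Of the members not named, Ifih1 (-1.20), Xaf1 (-1.39), Psmb9 (-1.37) and Ddx58 (-0.19) fell without control 3, while with it Ifih1 (-1.70), Xaf1 (-2.65) and Ddx58 (-0.42) did not pass and Psmb9 was below the filter, and Usp18 (-0.93), Oasl2 (-0.36), Tapbp (-0.06) and Ifi35 (0.11) did not pass.

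Set side by side, 16 of the 26 members tested at both sites were lower at both without descending control replicate 3, namely Ddx58, Ifih1, Trim25, Stat2, Irf9, Irf7, Ifit1, Ifit2, Ifit3, Xaf1, Parp14, Gbp2, Gbp3, Psmb8, Tap1 and Tap2. Of all genes tested at both sites 19.4% were lower at both in these fits. With all libraries these were 5 of 25 members and 4.23% of all genes. Without Gbp3 and Psmb8, which were tested only through the group where they were high, they were 14 of 24, and 5 of 24 with all libraries. The fits of the 2 sites share no library.

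**Figure D3:**
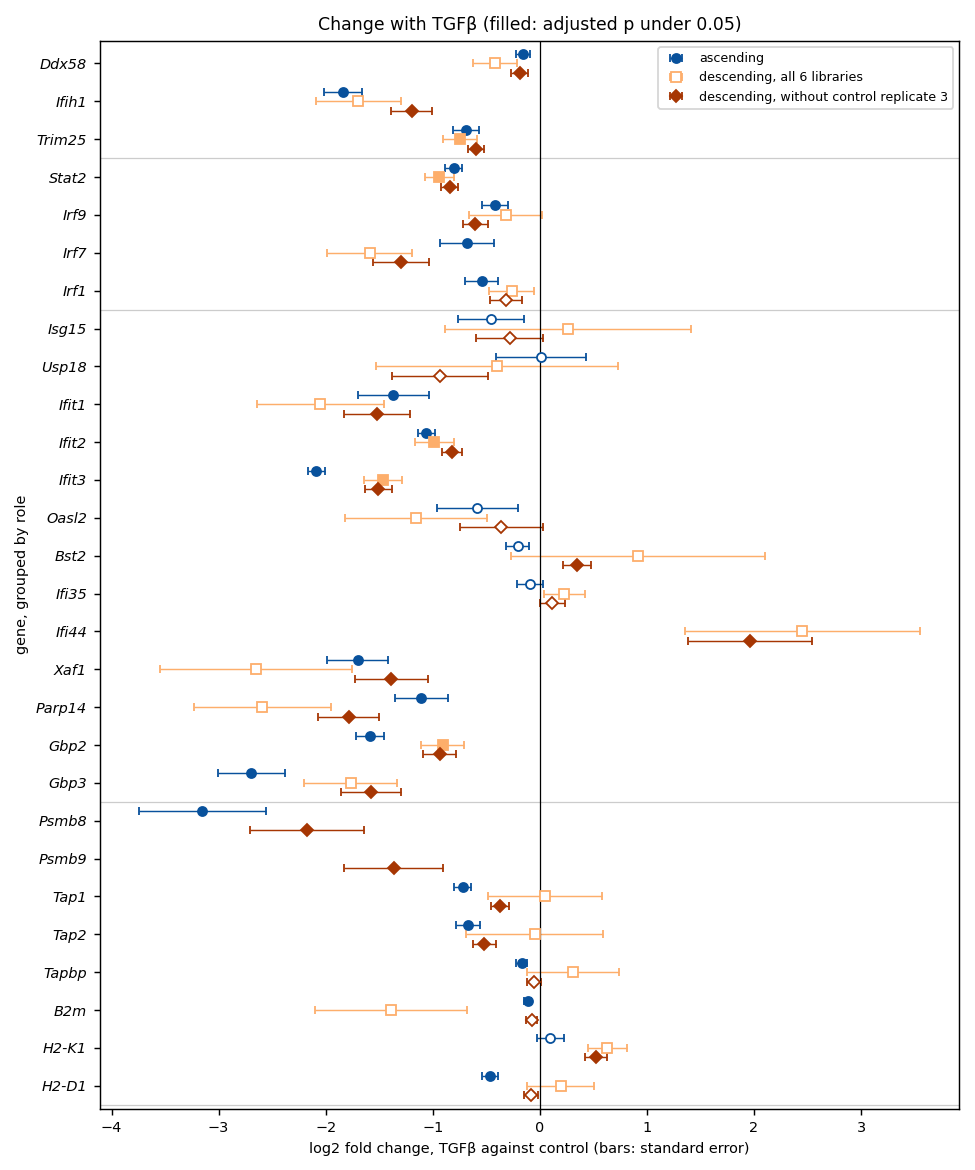
Log2 fold change of each tested member with TGFβ (points, bars are standard errors) in ascending fibroblasts and in descending fibroblasts with and without control replicate 3, in order of role. Filled points passed an adjusted p under 0.05. Ifit3 lay at -2.09 in ascending and -1.51 in descending fibroblasts without control replicate 3, while H2-K1 lay at 0.10 and 0.52.

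The third comparison set ascending against descending fibroblasts without TGFβ. Without descending control replicate 3, 8 of the 29 members tested were higher in ascending cells and 6 were lower, where 16.4% of all genes were higher and 15.2% lower (31.6% in either direction). Ifit3 was 2.19-fold higher in ascending cells, Bst2 1.82-fold, H2-K1 1.68-fold and H2-D1 1.65-fold, and Ifih1 (1.46-fold), Gbp2, Ifit2 and Tapbp were higher by less. Trim25 was 2.36-fold lower, Irf7 1.70-fold, and Stat2, Irf9, Tap1 and Tap2 between 1.27-fold and 1.30-fold lower. The members' median log2 fold change was -0.10 and that of all genes -0.0011. With all 6 libraries 1 member was higher (Ifit3) and 1 lower (Trim25), where 1.19% and 1.47% of all genes were (2.65% in either direction), and the median was -0.07 over 27 members and 0.045 over all genes.

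Ifit3 was at 33.4 to 38.3 CPM in the ascending and 14.4 to 16.6 in the descending controls (1.18, SE 0.13, adjusted p = 0.0119, and 1.13, SE 0.08, adjusted p = 6.41e-08, without descending control 3). Trim25 was at 12.9 to 17.7 against 35.1 to 46.5 (-1.38, SE 0.20, adjusted p = 0.0251, and -1.24, SE 0.10, adjusted p = 4.3e-07). The groups of these 2 genes did not overlap with or without control 3, and their calls with all 6 libraries were lost on leaving out any other library (adjusted p up to 0.195). The ascending controls were also above the descending controls in every library for H2-D1 (1.01, adjusted p = 0.251, and 0.72, SE 0.10, adjusted p = 4.78e-05, without control 3) and for H2-K1 (0.87, adjusted p = 0.189, and 0.75, SE 0.17, adjusted p = 0.00326). Bst2 was at 12.3 to 14.5 CPM against 7.12 and 7.41 in descending controls 1 and 2 and no count in control 3 (1.43, adjusted p = 0.601, and 0.87, SE 0.12, adjusted p = 8.56e-05). Ifih1 was at 6.82 to 8.64 against 5.29 and 5.51, with 12 in control 3 (0.05, adjusted p = 0.955, and 0.54, SE 0.15, adjusted p = 0.0149).

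Of the transcription factors, edgeR called 3 lower in ascending cells without control 3, of which DESeq2 on the same libraries called Stat2 and not Irf7 (adjusted p = 0.101) or Irf9 (0.129). DESeq2 did not call Ifih1 (0.0511), Tap2 (0.059) or Tapbp (0.0716) either. Irf7 was at 1.85 to 1.90 CPM in the ascending controls and 3.21 to 5.31 in the descending controls, with no overlap (-1.06, adjusted p = 0.258, and -0.77, SE 0.22, adjusted p = 0.0148, without control 3). Stat2 was at 24.8 to 28.8 against 35.0 to 41.4 (-0.44, adjusted p = 0.247, and -0.35, SE 0.07, adjusted p = 0.00227). Irf9 was at 11.5 to 14.7 against 17.9, 14.7 and 7.31, with control 3 below every ascending library (-0.07, adjusted p = 0.931, and -0.35, SE 0.13, adjusted p = 0.0458). Tap1 and Tap2 were at 19.2 to 20.03 and 12.2 to 15.5 CPM in the ascending controls and at 25.2 to 25.5 and 17.4 to 18.1 in descending controls 1 and 2, with 5.72 and 2.69 in control 3. Their difference had the other sign with control 3 (0.07 and 0.10, adjusted p = 0.951 and 0.946, against -0.35 and -0.38, adjusted p = 0.00163 and 0.0156, without it). Irf1 (-0.16, adjusted p = 0.505), Isg15 (0.13, adjusted p = 0.8) and B2m (0.10, adjusted p = 0.13) did not pass without control 3, nor with it (-0.11, 0.69 and -1.22, adjusted p = 0.818, 0.781 and 0.508). Gbp2 (0.50), Ifit2 (0.22) and Tapbp (0.56) did not pass with control 3 (adjusted p = 0.287, 0.585 and 0.577), against 0.47, 0.38 and 0.19 without it. Macrophage markers were higher in the ascending controls too, 6 of 11 tested without descending control 3 and none of 11 with it, as were 2 of 3 mesothelial markers without it (up to 4.73), with the other lower (Krt19, -1.62), and 1 of 2 with it. The 1 lymphocyte or pan-leukocyte marker tested (1.98) and both dendritic cell markers tested, Itgax (4.58) and the member Bst2, were also higher without it, and none of either list was called with it. Of the 6 smooth muscle markers 2 were higher and 3 lower without it and none was called with it. The part of these cells in the differences between the sites was not tested. Oas2 passed the filter only through 1 of the groups without descending control 3, and of the other 28 members 8 were higher and 6 lower. Without ascending control replicate 2 as well, 7 members were higher and 6 lower, with H2-K1 at 0.51 and H2-D1 at 0.61.

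The fourth comparison set the sites against each other under TGFβ. Of 26 members tested, 4 were higher in ascending cells and 7 lower, where 18.1% of all genes were higher and 18.2% lower (36.3% in either direction). The median was -0.13 over the members and 0.0024 over all genes. The 4 were Ifit3, at 7.80 to 9.10 CPM in ascending and 5.36 to 6.57 in descending cells (0.55, SE 0.13, adjusted p = 0.00153), H2-D1 at 68.2 to 72.5 against 54.7 to 58.7 (0.34, SE 0.05, adjusted p = 2.24e-06), H2-K1 at 25.6 to 27.05 against 18.9 to 23.9 (0.33, SE 0.08, adjusted p = 0.00162) and Bst2 at 9.79 to 12.5 against 8.98 to 9.59 (0.31, SE 0.11, adjusted p = 0.0328). In each of them every ascending library was above every descending library. The call of Bst2 was lost without ascending replicate 1 or 2 or descending replicate 2 or 3 (adjusted p 0.0692 to 0.15) and by DESeq2 (0.132), which called 3 members higher and 6 lower.

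Lower in ascending cells under TGFβ were Gbp3, Trim25, Tap1, Tap2, Ifi35, Irf1 and Stat2. Trim25 was at 8.57 to 10.2 CPM against 23.1 to 24.2, 2.51-fold lower (-1.33, SE 0.09, adjusted p = 7.95e-13). Gbp3 was at 0.261 to 0.487 against 0.662 to 1.46 (-1.47, SE 0.42, adjusted p = 0.00608), and its call was lost without descending replicate 2 (-1.24, adjusted p = 0.0503). Tap1 was at 11.2 to 12.8 against 18.8 to 20.8 (-0.70, SE 0.09, adjusted p = 2.66e-07) and Tap2 at 8.42 to 8.61 against 11.4 to 13.0 (-0.53, SE 0.11, adjusted p = 0.000186). The groups of these 4 genes did not overlap. Ifi35, a leucine zipper protein induced by interferon, was at 7.74 to 9.69 against 11.2 to 13.7 (-0.51, SE 0.11, adjusted p = 0.000734), and Stat2 at 14.8 to 16.1 against 18.6 to 20.5 (-0.31, SE 0.08, adjusted p = 0.00408). The call of Irf1, at 4.75 to 5.86 against 6.43 to 8.62 (-0.38, adjusted p = 0.0432), was lost without ascending replicate 1 or 3 or descending replicate 2 (adjusted p 0.0602 to 0.267) and by DESeq2 (0.143). Irf9 (-0.17), Irf7 (-0.15), Isg15 (-0.05) and B2m (0.05) did not pass. Macrophage markers were again higher in ascending cells in 3 of 9 tested, and mesothelial markers in 1 of 2, with 1 lower, while smooth muscle markers were lower in 5 of 6 (by up to 4.77-fold, Myh11), the endothelial marker Kdr was lower (-1.01) and Ptprc was higher (1.53), and their part in these differences was not tested. Gbp3 passed the filter only through the descending libraries, and of the other 25 members 6 were lower and 4 higher, with a median of -0.12.

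**Figure D4:**
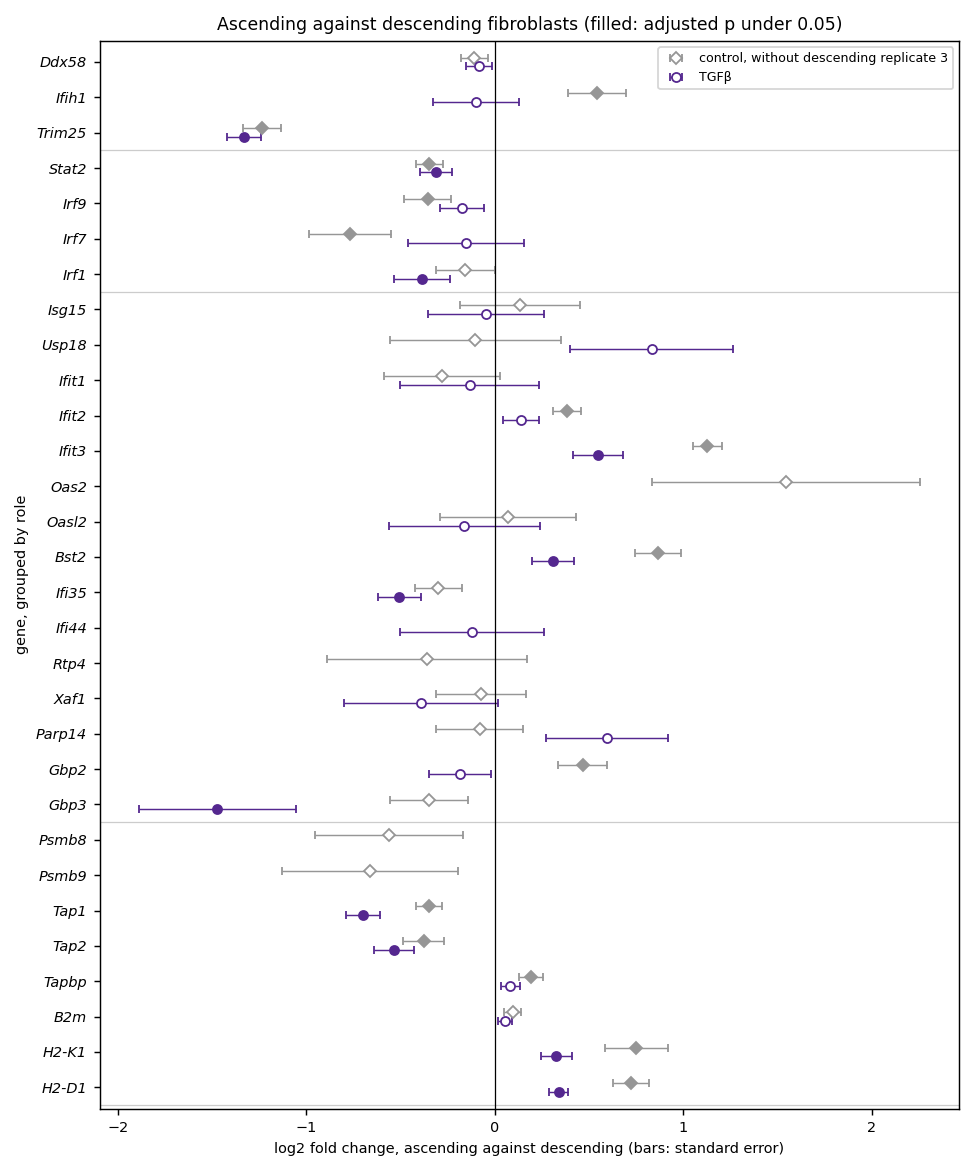
Log2 fold change of ascending against descending fibroblasts for each tested member (points, bars are standard errors), without TGFβ and without descending control replicate 3 (diamonds) and under TGFβ (circles). Filled points passed an adjusted p under 0.05. Trim25 lay at -1.24 and -1.33 and Ifit3 at 1.13 and 0.55.

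The last comparison asked whether the change with TGFβ itself differed between the sites, as the interaction of site and TGFβ. With all 12 libraries no member of 28 tested passed by edgeR's quasi-likelihood test, where 0.321% of all genes were more positive and 0.485% more negative in ascending cells (0.806% in either direction). At an unadjusted p under 0.05 were 2 of the 28 members, where 1464 of the 14637 genes tested were, so nothing is read from their number. DESeq2 called 1 member. The 2 members were Ifit3 (-0.63, SE 0.18, adjusted p = 0.187), the gene DESeq2 called at an adjusted p of 0.0477, and Gbp2 (-0.68, SE 0.21, adjusted p = 0.233). The member with the next smallest p was Irf7 (0.90, SE 0.41, adjusted p = 0.505), and the median was -0.30 over the members and -0.06 over all genes. Negative values mean a larger fall, or a smaller rise, in ascending fibroblasts.

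Without descending control replicate 3, 5 of 30 members passed, all more negative in ascending fibroblasts, where 7.4% of all genes were more negative and 6.07% more positive (13.5% in either direction). They were Ifit3 (-0.57, SE 0.14, adjusted p = 0.00742), Gbp2 (-0.64, SE 0.20, adjusted p = 0.0294), Bst2 (-0.55, SE 0.16, adjusted p = 0.0253), H2-D1 (-0.38, SE 0.11, adjusted p = 0.0184) and Tap1 (-0.34, SE 0.11, adjusted p = 0.0397). Ifit3 went from 35.8 to 8.45 CPM in ascending and from 16.5 to 5.76 in descending cells, as group means, and Gbp2 from 11.8 to 3.95 and from 8.61 to 4.50. Both genes began higher in ascending control, and under TGFβ Ifit3 was still higher there while Gbp2 did not differ beyond the test (-0.19, adjusted p = 0.417). Of 11 macrophage markers tested none passed, 10 were negative and their median was -0.90 (-1.17 with all libraries). Of 6 smooth muscle markers 1 was more positive and 3 more negative (none called with all libraries), and the part of either cell type in these differences was not tested. DESeq2 on the same libraries did not call Gbp2 (adjusted p = 0.0606) or Tap1 (0.0961). Without ascending control replicate 2 as well, Ifit3, Gbp2 and H2-D1 remained past the threshold (-0.57, -0.63 and -0.27). These values use the same libraries as the site comparisons and are not separate from them.

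The rest of the pathway was described with lists of further genes. Of 19 interferon genes none passed the filter on low counts at either site, and 18 of them were at or under 3 counts in every library. Ifnb1, the interferon that fibroblasts are known to make first on infection, had a count in 1 of 12 libraries, under the limit that a count of 0 allows. Both chains of the type I receptor were expressed and changed little, with Ifnar1 at 0.14 (adjusted p = 0.0101) in ascending and 0.04 (adjusted p = 0.565) in descending fibroblasts without control replicate 3, and Ifnar2 at -0.10 (adjusted p = 0.192) and 0.02 (adjusted p = 0.823). With control 3 they were at 0.08 and -0.03 in descending cells. Of the gamma receptor chains, Ifngr1 fell (-0.36 and -0.22, adjusted p = 4.77e-06 and 0.0046) and Ifngr2 rose (0.17 and 0.21, adjusted p = 0.0022 and 0.00146), in the same order of sites, and with descending control 3 neither passed (-0.21 and 0.40, adjusted p = 0.329 and 0.312).

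Of the 17 tested genes of receptors, signalling and inhibitors, 9 were lower and 3 higher with TGFβ in ascending fibroblasts, and 8 and 2 in descending fibroblasts without control replicate 3 (2 and 0 with it). These counts, and those of the lists that follow, stand beside 27.6% of all genes lower and 28.2% higher in ascending cells, 26.3% and 26.6% in descending cells without control 3, and 4.48% and 3.59% with it. Jak1, the kinase shared by these receptors, went from 352 ± 14.8 to 234 ± 8.20 CPM in ascending cells (SD, n = 3; -0.59, adjusted p = 6.32e-10) and fell in descending cells (-0.97, adjusted p = 0.017, and -0.82, adjusted p = 2.92e-14, without control 3). Tyk2 (-0.54, adjusted p = 2.24e-07) and Irf2bp2 (-0.62, adjusted p = 2.76e-07) also fell in ascending cells, and Ptpn11 rose by 0.13 (adjusted p = 0.00126). In descending cells Irf2bp2 (-0.75) and Irf2 (-0.72) fell and Ptpn2, a phosphatase that switches JAK signals off, rose (0.27, adjusted p = 0.0237) without control 3, and with it none of the 3 passed (-0.56, -1.41 and -0.23).

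Of the 39 further interferon-stimulated genes tested at each site, 26 were lower and 2 higher in ascending fibroblasts, and 25 and 2 in descending fibroblasts without control replicate 3 (6 and 0 of 38 with it). Their medians were -0.58 and -0.78. Slfn5, of the schlafen family, went from 10.5 ± 2.96 to 0.850 ± 0.21 CPM in ascending cells (SD, n = 3; -3.62, adjusted p = 2.42e-09) and fell in descending cells (-4.59, adjusted p = 0.0041, and -4.03, adjusted p = 6.98e-20, without control 3). Ifitm3, which blocks the entry of virus into cells, fell at both sites, by 1.01 and 0.92 on the log2 scale (adjusted p = 1.13e-11 and 4.95e-14, the latter 0.0103 with control 3), as did Ifitm2 in ascending cells (-0.63, adjusted p = 3.4e-09). Ifi204 fell in descending cells (-4.29, adjusted p = 0.0138, and -3.49, adjusted p = 9.87e-17, without control 3). The genes that rose at each site were Isg20 (0.56 and 0.39) and Irgm1 (0.16 and 0.54), and with control 3 neither passed in descending cells (0.24 and 0.74).

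Among the further genes of MHC class I and antigen processing, genes were called in both directions, as among all genes. In ascending fibroblasts 9 of 16 tested were lower and 4 higher, and in descending fibroblasts without control replicate 3 6 were lower and 5 higher (none of 14 tested passed with it), with medians of -0.37 and -0.07. The shares higher (4 and 5 of 16) lay near the 28.2% and 26.6% of all genes, so nothing is read from them. Nlrc5, the activator of MHC class I genes, was low and fell at both sites, from 1.22 ± 0.53 to 0.309 ± 0.11 CPM in ascending cells (SD, n = 3; -1.95, SE 0.44, adjusted p = 0.00122) and by 2.76 on the log2 scale in descending cells without control 3 (adjusted p = 1.38e-05), while with it Nlrc5 was below the filter. Nlrc5 passed the filter only through the controls, where it was high, so that a difference was built into its being tested. The genes that rose with the smallest p were Canx (0.41 and 0.40), Pdia3 (0.31 and 0.35) and Calr (0.25 and 0.50), which are general chaperones of the endoplasmic reticulum. The others that rose were H2-T24 at both sites (0.39 and 0.77) and Tapbpl in descending cells (0.58), named after their values were seen. Lower in ascending cells were H2-T22 (-0.44), Psme1 (-0.55) and Mr1 (-0.51), and in descending cells Cd1d1 (-2.31) and Mr1 (-0.42). None of these genes passed in descending cells with control 3, where Pdia3 was at -0.01.

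Of 14 sensing genes upstream of interferon tested in ascending fibroblasts, 5 were lower and 2 higher, and of 15 in descending fibroblasts without control replicate 3, 6 and 2 (1 and 0 with it, Ikbke), where 55.8% and 52.9% of all genes were called in either direction, so that these counts set the list apart from other genes at neither site. Ikbke, the kinase that activates IRF3 and IRF7 with TBK1, fell at both sites (-0.86 and -0.98, adjusted p = 1.54e-07 and 2.13e-09), as did the adaptor Myd88 (-0.51 and -0.58), where with control 3 Ikbke kept its call (-0.88, adjusted p = 0.0437) and Myd88 did not (-0.29). Traf3 rose at both sites (0.49 and 0.49). The other called genes with the smallest p were Ticam1 (-0.23) and Tmem173 (0.36) in ascending cells and Irf5 (-1.10) and Tlr7 (1.48) in descending cells. With control 3, Traf3 (0.72), Irf5 (-1.29) and Tlr7 (2.01) did not pass. MHC class II genes were low, with H2-Aa at 0 in every library outside ascending control, and the sum of the 7 listed was 2.07 to 6.76 CPM. None of 3 tested passed in ascending cells, where their median was 0.23, and in descending cells without control replicate 3 H2-Eb1 (-1.54) and H2-DMa (-0.59) were lower, while with it none of 2 tested passed.

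**Figure D5:**
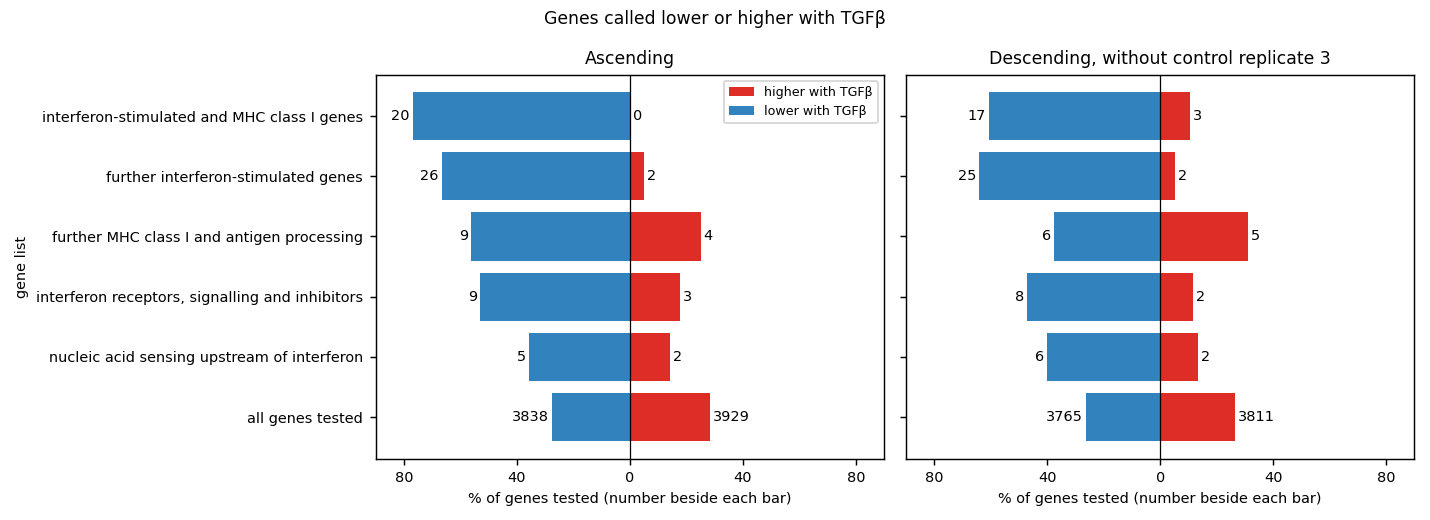
Share of the tested genes of each list that were lower (left of 0) or higher (right) with TGFβ at each site, with the number of genes beside each bar and all genes tested as the last bar. In ascending fibroblasts 20 members were lower and 0 higher against 3838 and 3929 of all genes.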

How the data were processed

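The authors deposited raw gene counts of 12 libraries in a single table, and per the labels reads passed FastQC and STAR on mm10 and were counted by featureCounts, with DESeq2 named for their own tests. Versions, strand setting and the handling of reads that map to several places are not given in the sources used here. Of the 54352 symbols, 22 are numbers that a spreadsheet may have made of names, and no member is among them.

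Counts were fitted here with edgeR 4.0.16 in R 4.3.3 (TMM scaling, filterByExpr with at least 10 counts, quasi-likelihood F-test) on the libraries of each comparison and on all 12 for the interaction. P-values were adjusted by Benjamini-Hochberg over all genes tested, and a gene was called at an adjusted p under 0.05. Standard errors are the log2 fold change over the root of F. Levels are TMM-normalized CPM (counts scaled to a common library size), and levels between genes are divided by the exon length in GENCODE vM21. Total counts were 16250126 to 23892943 a library. Counting intervals are exact binomial intervals at scaled library sizes. The fits were run on simulated counts with the same small dispersion for every gene, no outlying library and changed genes only at higher counts. This does not test how they handle descending control replicate 3 or members of low counts.

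The members and lists were chosen with earlier results of these data known. Values in every library, their range over a group or group means were given for up to 5 called members a direction with the largest change in each comparison. The same holds for the 3 members with the smallest p where none was called. It also holds for Stat2, Irf9, Irf7, Irf1, B2m, H2-K1, H2-D1 and Isg15 in any case, once where comparisons share libraries. Up to 3 called genes a direction from each list, and Ifnar1, Ifnar2, Ifngr1, Ifngr2, Nlrc5 and Ifnb1, were named with their log2 fold changes. 1 further gene is not reported here. Other genes were named after their values were seen. Alternatives were DESeq2 1.42.0, its size factors in edgeR, other filters on low counts, the replicate number as a block, 1 fit of all libraries, a fold threshold and leaving out each library. Replicates of a group differed beyond sampling noise (chi-square per degree of freedom 2.63 or more). Each library was counted as 1 sample, but this spread may be technical and does not show that the libraries came from separate mice.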

Additional observations from a re-analysis of the deposited data

Results flagged for a closer look

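The change with TGFβ differed between ascending and descending fibroblasts in 5 members once descending control replicate 3 was left out, by the interaction term of edgeR's quasi-likelihood test over the other 11 libraries. These were 5 of 30 members tested, where 13.5% of all genes were called in this fit, so nothing is read from their number, and DESeq2 on the same libraries did not call Gbp2 (adjusted p = 0.0606) or Tap1 (0.0961). The difference of the log2 fold changes was -0.57 for Ifit3 and -0.64 for Gbp2, both of which fell at both sites and by more in ascending cells. It was -0.34 for Tap1, which also fell at both. For H2-D1 it was -0.38, where the gene fell in ascending cells (-0.47) and did not pass in descending cells (-0.09). For Bst2 it was -0.55, with -0.21 in ascending cells, which did not pass, and 0.35 in descending cells. With all 12 libraries none of the 5 passed in edgeR (adjusted p 0.187 for Ifit3 and 0.233 to 0.693 for the others).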

How the results depend on the processing

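For the members called in each comparison with all its libraries, the 8 members given in any case, and 6 members named for the interaction, 764 values over the alternatives kept direction and side of the threshold, 113 lost a call, 41 gained a call and 17 changed sign, and the cause of each change was not tested unless named. Depth limits the 6 members under the filter and Ifi44, Psmb8, Psmb9 and Irf7. The shares of all genes called are given only for the main fits and those without descending control replicate 3. Counts of members in the other alternatives are not set against such a share. In ascending fibroblasts, members lower with TGFβ (20) were 7 in 1 fit of all 12 libraries, 9 with a log2 fold change above 1, and 18 to 20 on leaving out a library, with 0 to 1 higher (H2-K1 without control replicate 2 and Ifi44 without TGFβ replicate 2). H2-K1 ranged from -0.06 (without control replicate 1) to 0.34. In descending fibroblasts, members lower with TGFβ (5) were 11 by DESeq2 and in 1 fit of all libraries, each with 1 higher, 3 with no filter, 9 with at least 10 counts in every library, 1 with a log2 fold change above 1, and 0 to 17 on leaving out a library, with 0 to 3 higher. DESeq2 without control replicate 3, chosen after seeing the data, had 15 lower and 2 higher. On leaving out a library Isg15 ranged from -0.28 to 0.70 and H2-D1 from -0.09 to 0.43, both negative only without control replicate 3 (-0.28 and -0.07 by DESeq2).

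Between the controls, members higher in ascending cells (1) and lower (1) were 3 and 3 in the fit of all libraries, 0 to 8 and 0 to 6 on leaving out a library, 6 and 3 by DESeq2 without descending control replicate 3, and 7 and 6 with neither that library nor ascending control replicate 2, the last 2 chosen after seeing the data. On leaving out a library B2m ranged from -1.60 to 0.10, positive only without descending control replicate 3 (0.10 by DESeq2, 0.06 with neither library), Irf9 from -0.35 to 0.21 and Irf1 from -0.24 to 0.02. Under TGFβ, members higher (4) and lower (7) in ascending cells were 1 and 2 in the fit of all libraries and 0 and 2 with a log2 fold change above 1, and on leaving out a library Irf7 ranged from -0.28 to 0.07 and Isg15 from -0.24 to 0.16. Members with a more negative interaction (0) were 1 by DESeq2, 0 to 5 on leaving out a library (5 without descending control replicate 3), 3 by DESeq2 without that library, and 3 with neither library.

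The replicate numbers did not pair the samples, as deviations of same-numbered libraries correlated between -0.026 and 0.065. With the replicate block, no member was lower with TGFβ in descending cells (0) and none differed between the controls (0 and 0), where Irf9 was at 0.02, and the other counts stayed at 20, 4, 7 and 0.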
